A study of Homo sapiens with 12 samples.

Results

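U87, an established human glioblastoma cell line, was examined here for what temozolomide added to gene expression when the cells also received Y15. The arrays labelled U87 with Temozolomide and Y15 (TMZ+Y15, 2 arrays) were set against those labelled U87 with Y15 (2 arrays), so 4 of the 12 arrays of the series were compared, over every gene with a detected probe. Both groups received Y15 at 10 µM for 24 h, and what separated them was temozolomide. Its dose is not settled: 20 µM according to the titles, but 100 µM where the submitters describe the design. U87 with temozolomide alone (TMZ, 2 arrays) and untreated U87 (2 arrays) served to place the levels and to ask whether temozolomide acted differently with Y15 than without it. The other 4 arrays, of the glioblastoma line DBTRG with Y15 and untreated, were not compared. They entered the estimate of the spread, the quantile normalization, the filter on detection and the choice of a probe for each gene. No source used here says whether the arrays of a group came from separate cultures, and the p-values therefore cover only array-to-array spread, possibly technical.

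Temozolomide is an oral alkylating drug given with radiotherapy for glioblastoma. It methylates DNA bases, among them the O6 position of guanine, which the enzyme MGMT can reverse and which mismatch repair otherwise turns into strand breaks over later rounds of replication. Y15 inhibits FAK, the focal adhesion kinase encoded by PTK2, a tyrosine kinase that relays signals from integrins at the sites where cells hold the matrix.

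Messenger RNA was measured on single-colour Illumina bead arrays of 47323 probes, and levels below are log2 signals after background correction and quantile normalization. The TMZ+Y15 arrays detected 16143 and 16756 probes, against 14437 and 15169 in the Y15 arrays. Before normalization the median log2 signal of the 11857 probes detected in all 12 arrays was 8.38 and 8.37 in TMZ+Y15 and 7.91 and 7.81 in Y15. Both measures were thus higher in the TMZ+Y15 arrays. The median deposited signal of all probes, most of them undetected, ran the other way. It was 103.6 and 104 in TMZ+Y15 against 107.7 and 105.8 in Y15. Quantile normalization sets such differences aside, and their part in the results was not tested. Across genes, Pearson's r was 0.994 between the TMZ+Y15 arrays and 0.991 between the Y15 arrays, and lay between 0.988 and 0.989 for the 4 pairs of a TMZ+Y15 and a Y15 array. The SD of the log2 difference between replicates was 0.227 in TMZ+Y15 and 0.274 in Y15. Of the glioma line markers, CD44, CHI3L1, NES, SOX9 and VIM were detected in all 4 arrays, SOX2 in none of them, and S100B and GFAP did not enter the test.

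Few genes passed the threshold between TMZ+Y15 and Y15 at 24 h. Of 11423 genes tested, 35 differed (limma, adjusted p under 0.05), which is 0.306% of them, with 10 higher in TMZ+Y15 (0.0875%) and 25 lower (0.219%). At an unadjusted p under 0.05 there were 1289 genes (11.3%), 745 higher and 544 lower, against 571 expected by chance. The arrays of the 2 groups did not overlap for any of the 35 called genes, which was also so for 48.2% of all genes. The fitted log2 difference was at least 1 in size for 18 of the called genes, but 4 of these (VPS50, ZNF705G, RND1 and PLXNA4) were not detected in their lower group, where the bound on the fold is below 2. The count moved with single arrays: it was 0 without TMZ+Y15 replicate 1, 0 without TMZ+Y15 replicate 2, 0 without Y15 replicate 1 and 70 without Y15 replicate 2 (limma; 945, 900, 1100 and 1034 genes at an unadjusted p under 0.05). The split also moved with the scaling: it was 3640 higher and 75 lower when each array was centred on its median, where the median of all genes was 0.43, 8 and 40 with cyclic loess, 15 and 134 in the authors' deposited log2 values, and 5 and 165 when arrays were centred on the probes detected everywhere.

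**Figure D1:**
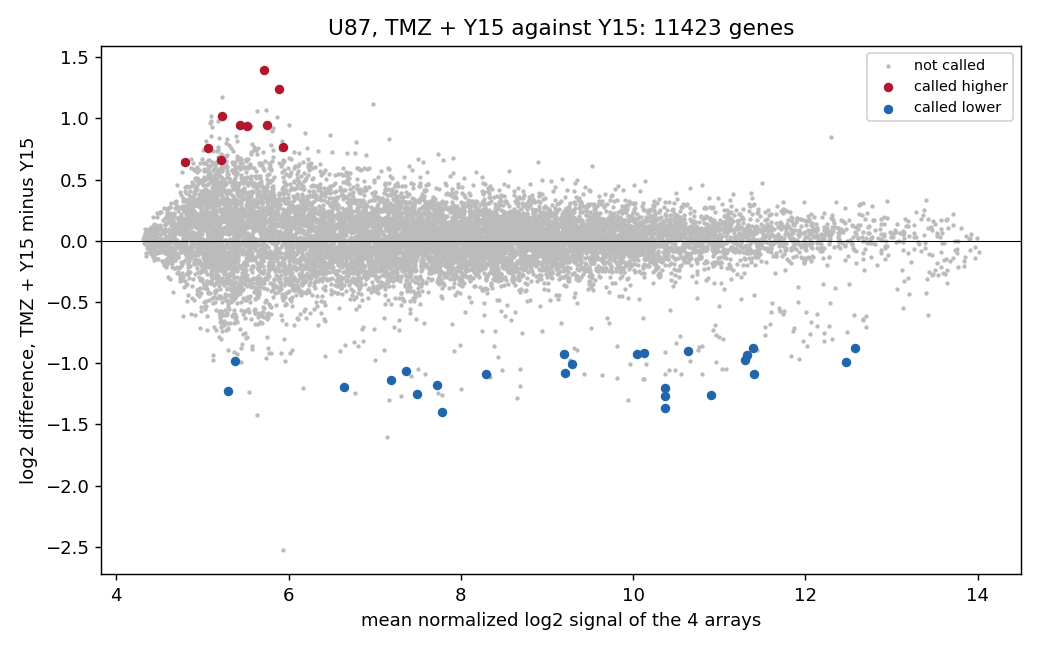
Each point is 1 of 11423 genes, with the mean normalized log2 signal of the 4 arrays on the horizontal axis and the log2 difference, TMZ + Y15 minus Y15, on the vertical axis. The 10 genes called higher (red) lie at the low end of the signal range, with TMZ+Y15 means between 5.12 and 6.51, and the 25 called lower (blue) spread over most of it, with Y15 means between 5.87 and 13.01.

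The 10 genes that rose were all dim. Both TMZ+Y15 arrays detected 9 of them, and for 9 of the 10 no Y15 array did. The vesicle-trafficking gene VPS50, whose product belongs to a complex that returns endosomal cargo to the cell surface, had levels of 6.41 and 6.42 in TMZ+Y15, against 5.02 and 5.02 in Y15. The TMZ+Y15 arrays lay clearly above the Y15 arrays and slightly above TMZ (6.16 and 6.05) and untreated cells (6.13 and 6.17). Its log2 difference was 1.40 ± 0.15 (SE, n = 2 arrays per group in this and the following; limma adjusted p = 0.00811), and since no Y15 array detected it the rise is bounded as at least 1.77-fold, the bound setting the TMZ+Y15 mean against the lowest detected signal of the Y15 arrays. The other VPS50 probes differed by 0.35, in a probe detected in 3 of the 4 arrays, and by -0.06, in one detected in none. Y15 alone was the low group for the VPS50 probe tested, and the zinc finger gene ZNF705G had the same order, with 6.62 and 6.40 in TMZ+Y15 against 5.22 and 5.31 in Y15 (1.24 ± 0.12, at least 1.88-fold, adjusted p = 0.00769).

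RND1, SLC7A11 and the activin receptor gene ACVR2A differed from the other rises in that, within U87, only the TMZ+Y15 arrays detected them. With detection in 3 of the 12 arrays, RND1 passed the filter (detection in at least 2 of them) only through TMZ+Y15. RND1 encodes a small GTPase that loosens the actin cytoskeleton and adhesion, and had levels of 5.60 and 5.88 in TMZ+Y15, against 4.77 and 4.68 in Y15. Its levels in TMZ (4.36 and 4.37) and untreated cells (4.40 and 4.33) were lower still, and it rose by 1.02 ± 0.14, at least 1.11-fold (adjusted p = 0.0260). SLC7A11 encodes the exchanger that brings cystine into the cell for glutathione synthesis. It had 5.45 and 5.44 in TMZ+Y15, against 4.66 and 4.72 in Y15, 4.60 and 4.37 in TMZ and 4.53 and 4.52 in untreated cells. The 2 arrays with both agents were higher than the other 6, with a difference of 0.76 ± 0.12 from Y15 (adjusted p = 0.0355), but so near the detection limit that no fold can be bounded.

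CCNG2 encodes cyclin G2, an unconventional cyclin linked to cell-cycle arrest. It had levels of 6.21 and 6.23 in TMZ+Y15, against 5.53 and 5.02 in Y15, and 6.07 and 5.94 in TMZ against 5.57 and 5.55 in untreated cells. Arrays with temozolomide were higher than their counterparts without it, both with and without Y15, and the rise over Y15 was 0.94 ± 0.16, at least 1.54-fold (adjusted p = 0.0419). The other CCNG2 probes differed by 0.63 and 0.13. The other rises were PM20D2, a dipeptidase gene (0.95 ± 0.13, at least 1.25-fold), C1GALT1C1L, a relative of an O-glycosylation chaperone gene (0.94 ± 0.16, at least 1.32-fold), CLGN, which encodes the chaperone calmegin of the endoplasmic reticulum (0.77 ± 0.13, detected in 1 Y15 array), ACVR2A (0.66 ± 0.11) and ARHGAP31, a GTPase-activating protein gene for CDC42 and RAC1 (0.65 ± 0.10). ARHGAP31 was detected in none of the 4 arrays, so it has no fold, and its levels of 5.11 and 5.14 in TMZ+Y15 lay below those in TMZ (5.44 and 5.56) and untreated cells (5.59 and 5.47). The second probe of CLGN differed by 0.53, that of ACVR2A by 0.05 and that of ARHGAP31 by -0.24, and none of the 4 arrays detected them. For 8 of the 10 rises the Y15 mean was below the untreated mean, an order that picking genes low in Y15 favours. The share of all genes in that order was not counted.

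**Figure D2:**
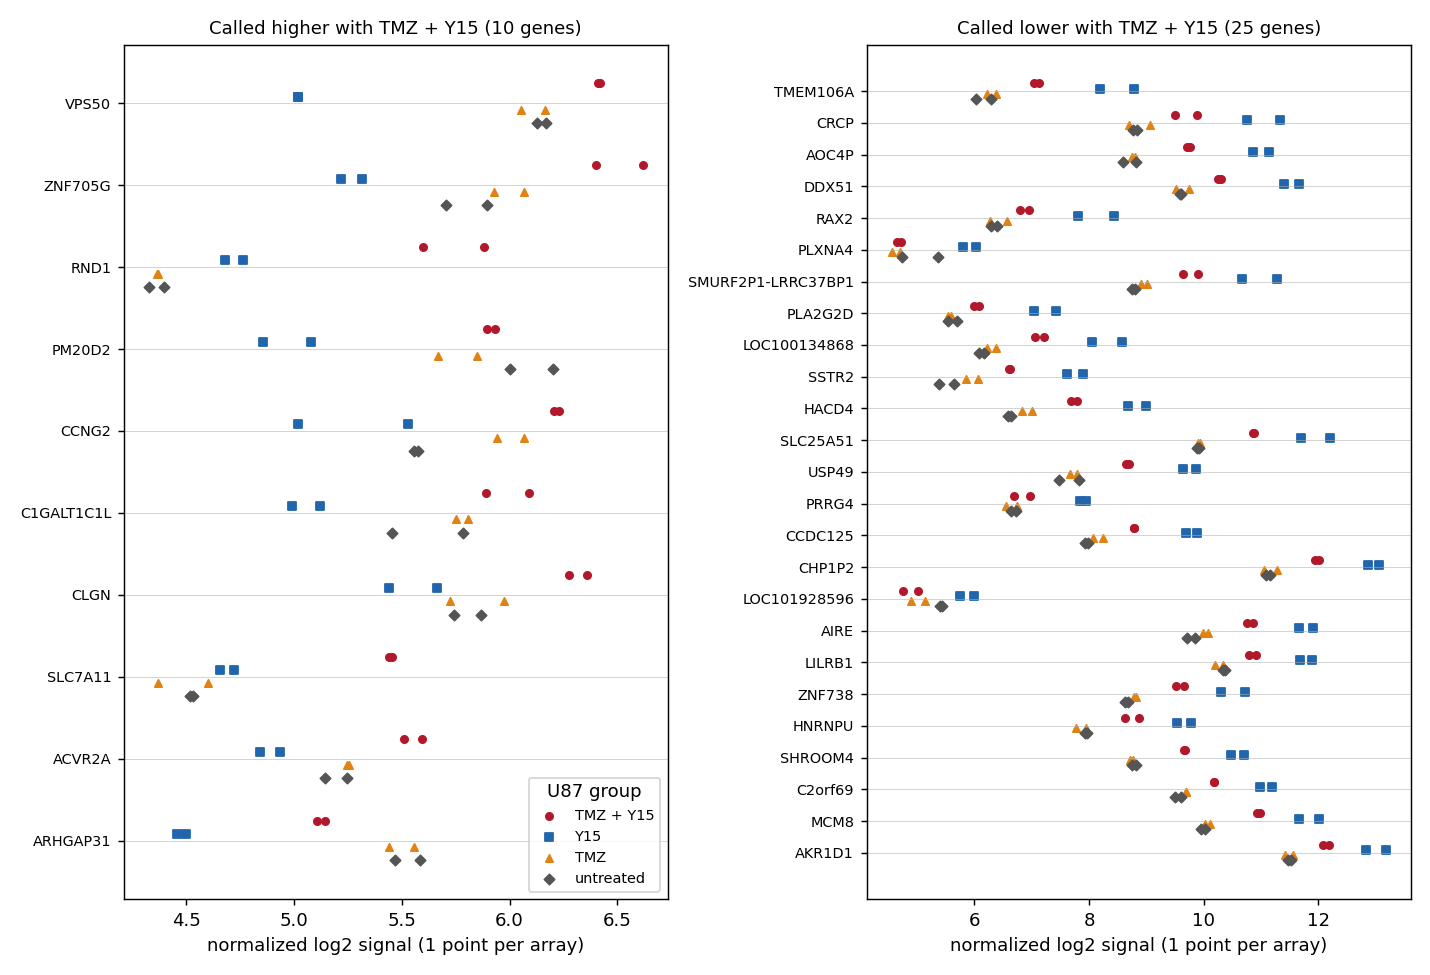
Normalized log2 signal of the 35 called genes, 1 point per array, for the U87 groups TMZ + Y15, Y15, TMZ and untreated. In the left panel the Y15 arrays lie below the TMZ+Y15 arrays in each of the 10 genes. In the right panel the TMZ+Y15 arrays of most genes lie between those of Y15 and those of TMZ and untreated cells.

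In all 25 genes that fell the Y15 mean exceeded the untreated mean. In 23 of them the TMZ+Y15 mean lay below Y15 but still above both TMZ and untreated cells. The same Y15 arrays enter both comparisons, so picking genes high in Y15 favours this order. The share of all genes in this order was not counted. Over all genes the median log2 difference of Y15 from untreated cells was -0.07. The DEAD-box RNA helicase gene DDX51 had levels of 10.30 and 10.25 in TMZ+Y15, against 11.66 and 11.41 in Y15, with 9.51 and 9.74 in TMZ and 9.59 and 9.60 in untreated cells. The groups TMZ+Y15 and Y15 were each apart from the others, and TMZ and untreated cells overlapped. DDX51 fell by 1.26 ± 0.13 on the log2 scale (adjusted p = 0.00769). CCDC125, named here after its values were seen, was at 8.78 and 8.78 in TMZ+Y15, against 9.88 and 9.70 in Y15, 8.24 and 8.07 in TMZ and 7.98 and 7.93 in untreated cells, in the same order, and fell by 1.01 ± 0.11 (adjusted p = 0.00908).

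The steepest of the called falls was that of TMEM106A, a membrane protein gene, with 7.04 and 7.13 in TMZ+Y15 against 8.79 and 8.19 in Y15 (-1.40 ± 0.22, adjusted p = 0.0351). CRCP, which encodes a subunit of RNA polymerase III, had 9.89 and 9.49 in TMZ+Y15 against 11.34 and 10.77 in Y15 (-1.36 ± 0.22, adjusted p = 0.0355). The pseudogene AOC4P gave -1.27 ± 0.21 and the retinal homeobox gene RAX2 -1.25 ± 0.20. In each of these the Y15 replicates were further apart than the TMZ+Y15 replicates. Y15 replicate 1 was above Y15 replicate 2 in each, as in 23 of the 25 falls, a share not counted over all genes. The other falls among the 12 largest were those of SMURF2P1-LRRC37BP1 (-1.20 ± 0.20), the secreted phospholipase gene PLA2G2D (-1.19 ± 0.15), LOC100134868 (-1.18 ± 0.16), the somatostatin receptor gene SSTR2 (-1.14 ± 0.16), HACD4, an enzyme gene of very long fatty acid synthesis (-1.09 ± 0.17), SLC25A51, the mitochondrial NAD carrier gene (-1.09 ± 0.16), and PLXNA4, a semaphorin receptor gene. PLXNA4 had 4.65 and 4.71 in TMZ+Y15, where no array detected it, against 6.03 and 5.80 in Y15, and its fall is bounded as at least 1.52-fold. It was detected in 3 of the 12 arrays, 2 of Y15 and 1 untreated, so it passed the filter on detection only through Y15. Both arrays of each group detected 23 of the 25 fallen genes.

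Several fallen genes are known from tissues far from glioma: AIRE from thymic epithelium, LILRB1 from leukocytes and AKR1D1, a bile acid synthesis enzyme gene, from liver. These were named after their values were seen. The AIRE probe tested had 10.86 and 10.76 in TMZ+Y15 against 11.92 and 11.66 in Y15, and was detected in all 12 arrays, while its other probe was detected in none. AKR1D1 and LILRB1 likewise had a second probe that no array of the 4 detected.

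For the 15 fallen genes with more than 1 probe, the probe tested was the one with the highest mean signal, and the other probes differed less. The 21 other probes of these genes differed between TMZ+Y15 and Y15 by log2 values between -0.70 and 0.32, and 8 of them were detected in at least 1 of the 4 arrays. The second DDX51 probe, detected in all 12 arrays, had 6.56 and 6.40 in TMZ+Y15 against 6.37 and 6.54 in Y15, a difference of 0.02. SLC25A51 had a second probe detected in all 4 arrays, with 6.52 and 6.35 in TMZ+Y15 against 6.24 and 6.11 in Y15, which ran the other way (0.26). MCM8, a helicase gene of homologous recombination, fell by 0.88 in the probe tested and gave -0.27 in its second probe, and HNRNPU, an RNA-binding protein gene, fell by 0.92 and gave -0.30. When the kept probes of each gene were averaged instead, 27 of the 35 genes were called again. Averaging leaves the values of a gene with only 1 kept probe unchanged, so this count does not measure agreement between probes.

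**Figure D3:**
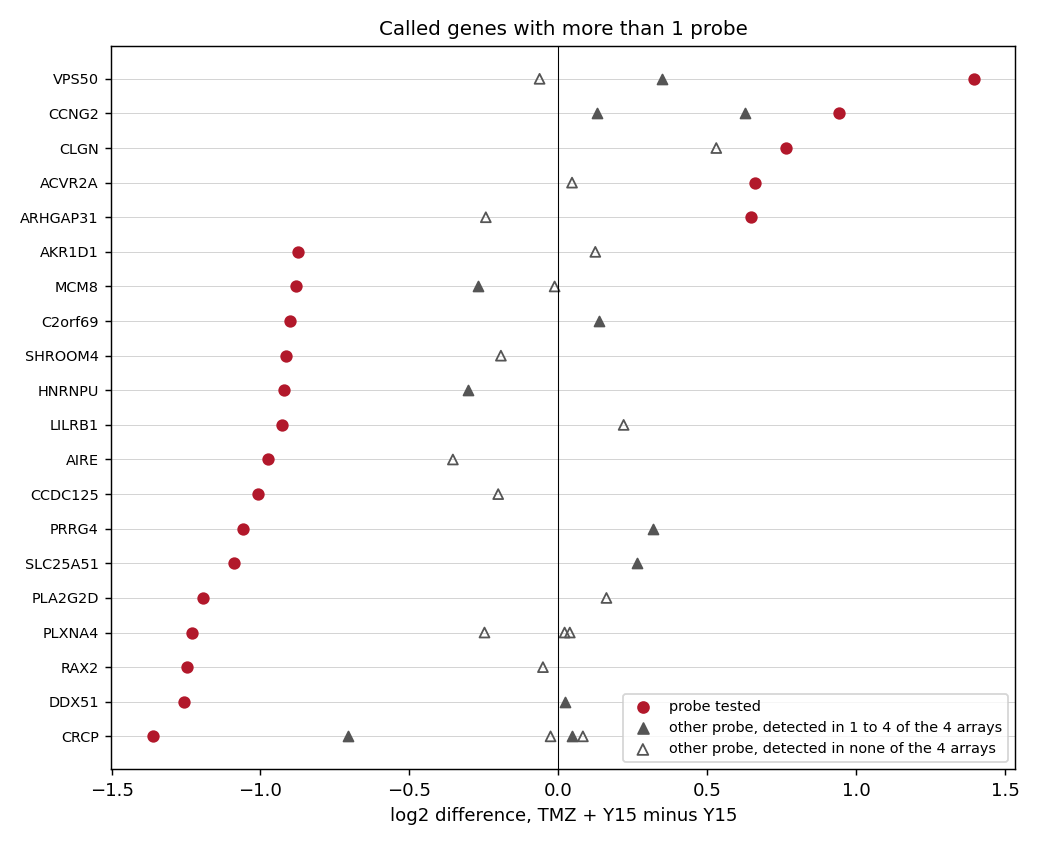
Log2 difference, TMZ + Y15 minus Y15, for the 20 called genes that have more than 1 probe. Red circles are the probes tested, filled triangles are other probes detected in at least 1 of the 4 arrays and open triangles are other probes detected in none. The circles of the 15 fallen genes lie between -0.87 and -1.36, and the triangles of the same genes between -0.70 and 0.32.

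CDKN1A, the gene of the cyclin-dependent kinase inhibitor p21 and a main arrest gene after DNA damage, had nearly the same level in every treated group in the probe tested. It was at 12.27 and 12.35 in TMZ+Y15, against 12.36 and 12.37 in Y15, and at 12.22 and 12.21 in TMZ against 11.29 and 11.27 in untreated cells. Temozolomide thus went with a difference of 0.93 without Y15 and of -0.05 ± 0.10 with it (adjusted p = 0.888 for TMZ+Y15 against Y15). The difference between these 2 effects was -0.99 ± 0.14, with an adjusted p of 0.0626 that misses the threshold. Over the alternatives this adjusted p lay between 0.00123, in the authors' deposited log2 values, and 0.38, without untreated replicate 1, and it passed in 6 of 25. Not all alternatives are separate: the authors' values and no background correction gave the same result (-0.96 ± 0.12). The 8 U87 arrays alone and only the arrays compared are the same fit for this contrast. With arrays centred on their medians the difference was -0.56 (limma adjusted p = 0.168). With the kept probes of the gene averaged it was -0.70 ± 0.19 (limma adjusted p = 0.325). Over all genes, 0 of 11423 (0%) were called for this difference of temozolomide effects by limma, with 950 at an unadjusted p under 0.05 (8.32%), and leaving out Y15 replicate 2 gave 26.

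**Figure D4:**
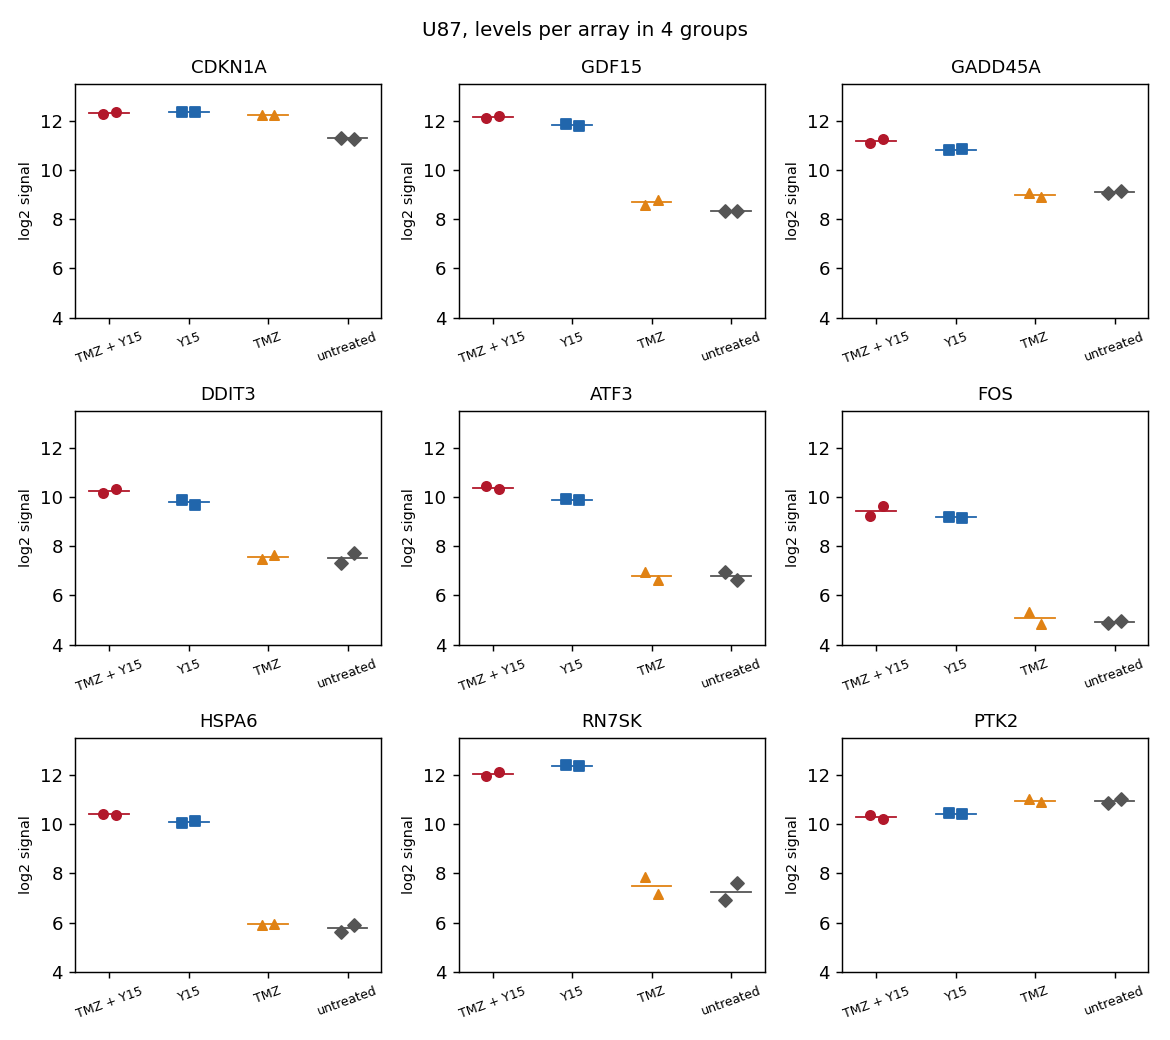
Normalized log2 signal per array of 9 genes in the U87 groups TMZ + Y15, Y15, TMZ and untreated, with a line at each group mean. CDKN1A is lower only in untreated cells, PTK2 is near 10.3 in TMZ+Y15 and 10.4 in Y15, and the other 7 genes are high in both groups that received Y15 and low in TMZ and untreated cells.

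Other genes of the DNA damage response leaned upward without passing the test. Of 33 measured genes in the list of damage arrest, feedback and repair targets, 0 were called, 24 were above 0 and the median log2 difference was 0.18, against 54.6% above 0 and a median of 0.02 over all genes. An unadjusted p under 0.05 was reached by 11 of the 33 (33.3%), against 11.3% of all genes, with 10 of them higher and 1 lower. The lower one was FAS, a death receptor gene, at -0.41 (adjusted p = 0.302) and detected in none of the 4 arrays. List members named in this and the following paragraphs beyond those the rule fixes were picked after the values were seen, in no fixed order. PLK2, a polo-like kinase gene of the stress response, had 6.90 and 6.92 in TMZ+Y15 against 6.26 and 5.84 in Y15 (0.87 ± 0.16, adjusted p = 0.0574). GADD45A, a stress sensor gene, had 11.09 and 11.23 in TMZ+Y15 against 10.80 and 10.83 in Y15 (0.35 ± 0.13, adjusted p = 0.323). GDF15, a secreted stress cytokine gene, had 12.12 and 12.17 in TMZ+Y15 against 11.85 and 11.80 in Y15 (0.32 ± 0.12, adjusted p = 0.332). In all 3 genes the TMZ+Y15 arrays lay above the Y15 arrays, but the difference did not pass. MDM2, the gene of an arrest-limiting ubiquitin ligase, overlapped between the groups, with means of 6.29 in TMZ+Y15 and 6.34 in Y15 (-0.05 ± 0.23).

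The genes that reverse or process temozolomide's lesions were not called. Of 24 in that list 19 were measured, with a median of 0.06, and MGMT did not enter the test. The mismatch repair gene MSH6 overlapped between the groups (-0.03 ± 0.13), and PMS2 gave 0.15 ± 0.17. In base excision repair, APEX1, the gene of the endonuclease that cuts abasic sites, gave 0.05 ± 0.11, the scaffold gene XRCC1 -0.06 ± 0.12, and the glycosylase gene MPG 0.37 ± 0.26, with no detection in the Y15 arrays. Of 24 measured genes of homologous recombination, the Fanconi pathway and checkpoint kinases, 0 were called and the median was -0.06. The 36 genes of G1/S and replication and the 42 genes of G2/M and mitosis had 0 called members and medians of -0.03 each.

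Genes of the ATF4 amino acid response, which cells switch on when amino acids run short or proteins misfold, lay mostly above 0. Of 29 measured genes 27 were above 0, against 54.6% of all genes, with a median of 0.20, and SLC7A11 was the 1 called member. The stress transcription factor gene ATF3 had 10.44 and 10.33 in TMZ+Y15 against 9.91 and 9.88 in Y15 (0.49 ± 0.17, adjusted p = 0.303). DDIT3, which encodes CHOP, had 10.17 and 10.31 in TMZ+Y15 against 9.88 and 9.69 in Y15 (0.45 ± 0.15, adjusted p = 0.256). Both genes were far lower in TMZ and untreated cells, at 6.97 and 6.65 against 6.94 and 6.62 for ATF3. TRIB3, a pseudokinase gene induced by ATF4, overlapped between the groups (0.20 ± 0.16), and ASNS, the asparagine synthetase gene, had 11.33 and 11.31 in TMZ+Y15 against 11.11 and 11.04 in Y15 (0.25 ± 0.12, adjusted p = 0.464). SLC7A11 is also the 1 called member of the 22 measured NRF2 antioxidant targets (median 0.13), among which HMOX1, the heme oxygenase gene, gave -0.05 ± 0.12.

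ATF4 binds DNA with C/EBP partners at elements of the kind TGATGNAA. To show what such an element looks like in the genes of this list, that motif was searched on both strands of RefSeq promoter windows (GRCh38.p14, from 250 bases before to 50 after the start of the gene). Of the 29 tested genes 25 matched a window by symbol (SLC7A11, PSPH, SHMT2 and NUPR1 did not), and 6 of the 25 (24%) held the motif, as did 1270 of all 35116 windows (3.62%). A match is a description of the letters only. The 4 stretches that lie before the start site follow, on the strand of the gene, with the match in capitals, from the windows chr7:97872359-97872658 (ASNS, minus strand), chr1:212565157-212565456 (ATF3, plus), chr15:40953221-40953520 (CHAC1, a glutathione-degrading enzyme gene, plus) and chr16:70289457-70289756 (AARS1, alanyl-tRNA synthetase, minus).
ASNS: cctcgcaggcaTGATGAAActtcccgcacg
ATF3: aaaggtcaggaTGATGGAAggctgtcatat
CHAC1: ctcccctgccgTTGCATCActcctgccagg
AARS1: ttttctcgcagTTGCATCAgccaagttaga
The differences of these genes were 0.25 ± 0.12 (ASNS), 0.49 ± 0.17 (ATF3), 0.25 ± 0.19 (CHAC1) and 0.01 ± 0.17 (AARS1), none of which passed.

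Among the genes of matrix and adhesion, levels leaned the other way. Of 24 measured genes of collagens and extracellular matrix, 21 were below 0, against 5190 of 11423 over all genes. The median was -0.18 and 0 were called. COL1A1, a chain of type I collagen, had 7.55 and 7.57 in TMZ+Y15 against 8.18 and 8.30 in Y15 (-0.68 ± 0.15, adjusted p = 0.0811). Its partner COL1A2 had 9.84 and 9.77 in TMZ+Y15 against 10.38 and 10.49 in Y15 (-0.63 ± 0.15, adjusted p = 0.103). Both were highest in TMZ and untreated cells, with 8.69 and 8.77 against 8.58 and 8.58 for COL1A1, so the TMZ+Y15 arrays were the lowest of the 4 groups. These 2 genes also stand in the list of fibroblast markers, of which 4 of 6 were measured and all 4 were detected in every array compared, with a summed signal of 1432 and 1382 in TMZ+Y15 against 2002 and 2120 in Y15; their part in the result was not tested. The labels give the U87 line alone and name no fibroblasts. Bulk signal cannot tell fewer cells expressing these genes from less of their RNA per cell.

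PTK2, the gene of the kinase that Y15 inhibits, did not pass the test, with 10.37 and 10.23 in TMZ+Y15 against 10.45 and 10.40 in Y15 (-0.13 ± 0.12, adjusted p = 0.755). Its relative PTK2B had 5.63 and 5.49 in TMZ+Y15 against 5.98 and 5.92 in Y15 (-0.39 ± 0.21, adjusted p = 0.525). Of 39 measured genes of FAK signalling and focal adhesions 30 were below 0, against 5190 of 11423 over all genes. The median was -0.06 and 0 were called. The integrin gene ITGA5, which encodes the alpha chain of the fibronectin receptor, was the lowest of the list (-0.46 ± 0.18, limma adjusted p = 0.346). The actomyosin kinase gene ROCK2 gave -0.44 ± 0.15 (limma adjusted p = 0.274).

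Of the stress genes given whatever their values, none of those high with Y15 alone passed the test between TMZ+Y15 and Y15. The immediate early genes FOS and FOSB, which encode AP-1 subunits, had 9.24 and 9.62, and 9.99 and 10.03, in TMZ+Y15, against 9.20 and 9.15, and 9.79 and 10.01, in Y15. Neither passed the test (0.25 ± 0.25 and 0.11 ± 0.30), nor did EGR1, a growth-response transcription factor gene (0.44 ± 0.17), or MYC (-0.01 ± 0.14). The inducible chaperone gene HSPA6 had 10.43 and 10.37 in TMZ+Y15 against 10.03 and 10.12 in Y15 (0.32 ± 0.21, adjusted p = 0.615), in a list of 22 measured cytosolic chaperones with a median of 0.15 and 0 called. Of 21 measured AP-1 and immediate early genes 0 were called (median 0.11). RN7SK, the RNA that holds the elongation kinase P-TEFb inactive, had 11.96 and 12.10 in TMZ+Y15 against 12.38 and 12.38 in Y15 (-0.35 ± 0.27, adjusted p = 0.683). The U3 small nucleolar RNA gene SNORD3A had 12.56 and 12.84 in TMZ+Y15 against 12.79 and 12.88 in Y15 (-0.13 ± 0.49), and copies of U3 can share signal. Of 129 measured genes of small structured RNAs 0 were called, with medians of 0.10 for 59 box C/D, 0.15 for 42 box H/ACA, 0.18 for 6 Cajal body and -0.18 for 22 other RNAs. GAPDH, a glycolytic enzyme gene often used as a reference, gave 0.10 ± 0.11.

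**Figure D5:**
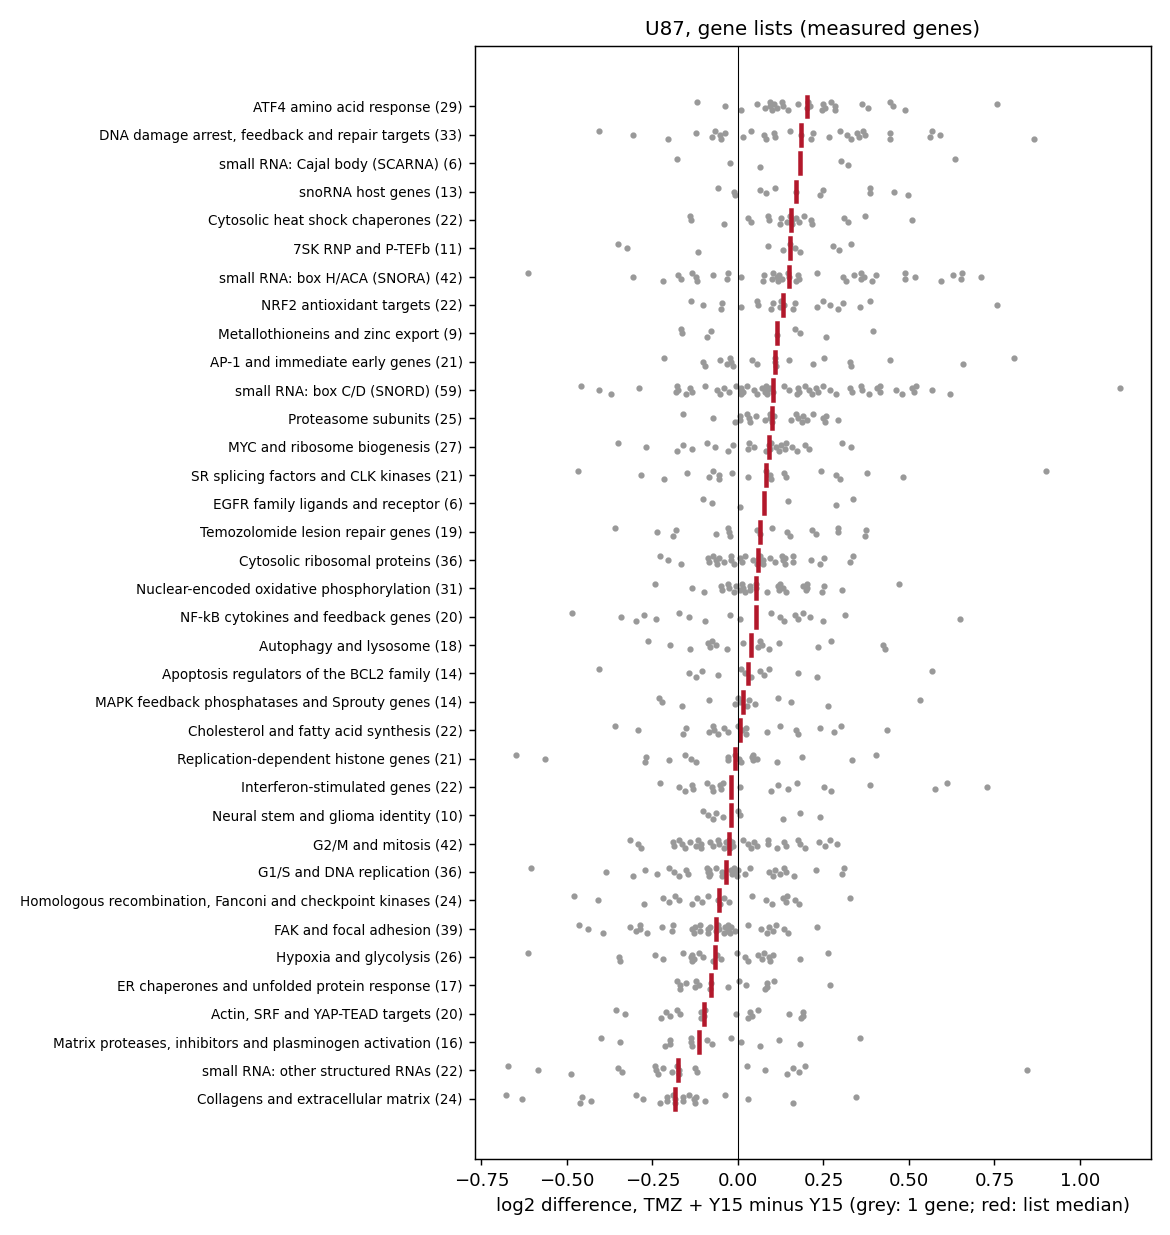
Log2 difference, TMZ + Y15 minus Y15, for the measured genes of 32 gene lists and 4 classes of small RNA (grey points, with the number of genes beside the name) and the median of each list (red bar). The medians lie between -0.18 (collagens and extracellular matrix) and 0.20 (ATF4 amino acid response).

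Across the 32 gene lists and 4 classes of small RNA, no list had more than 1 called member, and the medians ran from -0.18 to 0.20. With arrays centred on their medians, all genes had a median of 0.43 and those of the ATF4, DNA damage and collagen lists were 0.63, 0.60 and 0.23; the sign of the collagen median thus flips there while it stays below the median of all genes.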

How the data were processed

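Linear, non-normalized intensity values were deposited for every probe, each with a detection p-value per the file headers. The authors also deposited log2 values, whose medians lie at 6.82 in every array. How these were normalized is unstated, and they served as an alternative. They gave the same counts as quantile normalization without background correction, so these settings are not separate alternatives. GenomeStudio, without a version, appears in the submitters' processing notes. Frozen tissue is mentioned in the extraction protocol although the labels give cell lines. No slide or batch was used here. Microarrays give no read depth; the number of arrays, 2 per group, limits the precision.

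Signals were background corrected in limma 3.58.1 (R 4.3.3) by normexp with the detection p-values and an offset of 16, put on the log2 scale and quantile normalized. The offset makes log2 differences of dim probes smaller than the true change. Probes with a detection p-value under 0.01 in at least 2 of the 12 arrays were kept (19354), of which 4101 had no single gene symbol in the platform annotation. Over the whole array, 30113 probes had 1 symbol, 8 had several and 17202 were unlisted. The kept probe with the highest mean stood for each gene (3061 genes had more than 1), and 11423 genes were tested. limma fitted the 6 group means to all 12 arrays (6 residual degrees of freedom), with eBayes and two-sided p-values adjusted by Benjamini-Hochberg over all genes tested; called means an adjusted p under 0.05. The second contrast was the effect of temozolomide with Y15 minus that without it. The fit was tested on simulated data.

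Named genes were the 12 largest called rises and the 12 largest called falls whose arrays do not overlap between the groups, the 3 smallest p of lists with at least 3 called members (none had), the 5 largest called differences of effects in each direction (none was called), and a set of genes of the damage, stress and small RNA responses given whatever their values. The members and lists were chosen with earlier results of these data known, so their patterns are no independent support. Of the other marker lists, those of microglia, endothelium, epithelium and lymphocytes had 4, 2, 3 and 2 measured genes and 0 called.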

Additional observations from a re-analysis of the deposited data

Results flagged for a closer look

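Among the 4101 kept probes with no single gene symbol, which lie outside the gene tests, 36 were called between TMZ+Y15 and Y15 when all 19354 kept probes were fitted together with limma (0.878% of them), 32 lower and 4 higher. The share was 0.321% among the 15253 kept probes with a gene symbol, 19 higher and 30 lower. Some of these called probes did not stand for their gene in the gene tests. Higher ones were of RAD51B (0.83 ± 0.15, limma adjusted p = 0.0467), GTF2H1 (1.11 ± 0.16, 0.0339) and TDP2 (1.13 ± 0.19, 0.0455). Others higher were of SRGAP2, GCH1, MAGEA6, TSEN15, ZFC3H1 and TRAPPC6B, and those lower were of ZNF557, TDRD1, DENR and SMTN. The higher ones were dim. The annotation names no gene for the 36, so they are given as a count only.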

How the results depend on the processing

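Each of the 35 called genes that an alternative tested kept its direction there, but no call held in every one. Against 35 calls (10 higher, 25 lower), the count was 3715 with arrays centred on their medians (3640 and 75), 149 in the authors' log2 values (15 and 134) and the same 149 with no background correction, 135 with an offset of 50 (21 and 114), 14 with no filter on dim probes (5 and 9), 88 with detection in at least 2 of the arrays compared (33 and 55), 116 with the 8 U87 arrays alone (42 and 74), 215 with array weights (87 and 128), 134 with a variance trend (21 and 113), and 0 with only the 4 arrays compared (1606 at an unadjusted p under 0.05 by limma). Cyclic loess gave 40 lower. Leaving out 1 of the 4 arrays gave between 0 and 70 calls, with 0 to 6 higher and 0 to 64 lower; the lone array of a group was then assumed to vary like the others. Settings added after the data were seen gave 170 (5 and 165) with arrays centred on the probes detected in all 12, and 62 with detection in every array compared (53 lower), where none of the 10 rises was tested. For the difference of temozolomide effects, with 0 calls, these settings gave 2 (median centring), 3 (cyclic loess), 57 (authors' values), 57 (no background correction), 22 (offset), 12 (array weights), 19 (trend), 5 (detection in every array) and 0 to 26 without 1 array. The causes were not tested, except that filters and smaller fits change how many genes or arrays enter.

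The replicate numbers carry no stated pairing, and the deviations of same-numbered TMZ+Y15 and Y15 arrays correlated at 0.03. With the replicate block 38 genes were called (9 higher, 29 lower), 27 of the 35 among them, and 0 for the difference of effects. The calls of VPS50 and ZNF705G were lost in 4 of 20 alternatives each, that of DDX51 in 5 of 21, that of SLC7A11 in 11 of 20 and that of CCNG2 in 11 of 20. Of the 10 rises, 9 were detected in no Y15 array, which limits what can be said of their size.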

Other observations

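The gene tests gave the smallest adjusted p for the difference of temozolomide effects, 0.0626, to 7 genes. The difference was negative in CDKN1A (-0.99), DDX51 (-1.29), CCDC125 (-1.21) and SSTR2 (-1.58), and positive in VPS50 (1.44) and PM20D2 (1.29). The remaining one was PNLIPRP3, a lipase relative. Levels of PNLIPRP3 were 7.12 and 7.36 in TMZ+Y15 against 6.71 and 6.79 in Y15, and 4.95 and 4.88 in TMZ against 5.63 and 5.85 in untreated cells. PTPRR, a tyrosine phosphatase gene that acts on MAP kinases, had the same form, with 7.54 and 7.62 in TMZ+Y15 against 6.88 and 6.62 in Y15, and 5.04 and 4.96 in TMZ against 5.61 and 5.55 in untreated cells (difference of effects 1.41, adjusted p = 0.0768). In both genes TMZ+Y15 lay above Y15 and TMZ lay below untreated cells, and neither difference of effects passed the threshold.

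The TMZ+Y15 levels of the splicing factor gene SRSF11 were 6.44 and 6.08 against 5.37 and 5.35 in Y15 (0.90 ± 0.17, adjusted p = 0.0574), and those of the small nucleolar RNA gene SNORD99 were 7.49 and 7.58 against 6.25 and 6.59 (1.12 ± 0.21, adjusted p = 0.0574); both missed the threshold.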
